A study of Mus musculus with 3 samples.

Results

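Skin neutrophils are the 281 cells, of 25791 kept skin cells, that carried neutrophil transcripts in a mouse model of atopic dermatitis-like inflammation. They were 141 cells of the RHS library and 140 of the control library, and the series held 31024 barcodes in all. Both skin libraries were made from CD45 bead-selected cells captured on the BD Rhapsody microwell system, 1 library per group. The RHS mice were given RHS, an abbreviation the labels do not expand, together with MC903, and the control mice were given MC903. MC903 is calcipotriol, a vitamin D analogue that raises skin inflammation, and by the labels both groups were given it. The design text instead names ethanol-treated and MC903-treated mice for the skin. The labels were followed here, and the conflict over the treatment of the control mice could not be resolved. The remaining library held nuclei of sympathetic ganglia and enters none of the comparisons below. The labels give no genotype, strain or age, and do not say how many mice each skin library came from. By its title the study is about sympathetic nerves, eosinophils and psychological stress in skin inflammation. The comparison here asks how skin neutrophils differed between the RHS and control libraries.

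Neutrophils are short-lived granulocytes that leave the blood for inflamed skin, drawn by chemokines that bind the receptor Cxcr2. They store antimicrobial proteins in granules that are filled in the bone marrow, and in tissue they make chemokines and cytokines such as interleukin 1 that recruit further cells. Calprotectin, the complex of S100a8 and S100a9, is the most abundant protein of their cytosol and is the marker by which they are usually found.

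A cell was taken as a neutrophil if it met all of these conditions. Its barcode had 200 genes or more. No more than 20% of its UMIs (unique molecular identifiers, each standing for 1 captured RNA molecule) were mitochondrial. It had at least 3 UMIs of S100a8 and S100a9 together, and a UMI of at least 1 of Csf3r, Cxcr2, Retnlg and Mmp9. It had no UMI of 8 genes of other cells (Krt5, Krt14, Krt10, Cd3e, C1qb, Cd207, Vcan and Cd209a). The levels of the first 6 genes are therefore a description of the choice and not a finding. At the lower edge, 6 RHS and 6 control cells had exactly 3 calprotectin UMIs, while 3 RHS and 2 control cells with exactly 2 stayed out. The 8 excluded genes removed 24 RHS and 32 control cells. No gated barcode was shared by the libraries, although 5 barcodes of the skin libraries were. The doublet caller Scrublet marked 0.880% of kept RHS cells and 1.15% of kept control cells, and 1 RHS and 2 control neutrophils were among them; they were kept in.

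The gated cells were shallow. The RHS neutrophils held 187085 UMIs, from 506 to 8062 per cell with a median of 1218, and the control neutrophils 205619 UMIs, from 616 to 8071 with a median of 1284. The medians over all kept cells were 3116 UMIs in the RHS and 3257 UMIs in the control library. Mitochondrial UMIs had a median of 0.933% in RHS neutrophils and 0.837% in control neutrophils, against 4.69% and 4.75% in all kept cells. Each group had a single library, so differences between the groups have no replicate check, and none was tested. Levels are summed counts per 1000000 UMIs of the gated cells (CPM), and each interval, at 95%, takes in the error of counting alone. A gene was called higher or lower by a fixed rule of size, a ratio of CPM of at least 1.5 either way with 30 counts or more in the library where it was higher.

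The gate genes were high in both libraries. S100a8 had 19825 CPM in RHS neutrophils and 19701 CPM in control neutrophils, and S100a9 had 16180 and 14580 CPM. In RHS, 1 cell held 356 of the 3709 S100a8 UMIs. Over cells of at most 2500 UMIs, S100a8 had 20180 CPM in RHS and 23608 CPM in control, a ratio of 0.855 (0.816 to 0.895). There the ratio of S100a9 was 0.980 (0.930 to 1.03). The median RHS neutrophil held 17.0 UMIs of S100a8 and the median control neutrophil 23.0 UMIs. Csf3r, the receptor of the growth factor G-CSF, was seen in 115 RHS and 126 control cells. Cxcr2 was seen in 67 RHS and 77 control cells, and Mmp9, a gelatinase of the granules, in 51 cells of each library. Retnlg, a resistin-like secreted protein of neutrophils, was seen in 74 RHS and 108 control cells and is the gate gene that differed past the fold (described further on). Cells in which all 4 of these second genes were seen numbered 7 in RHS and 23 in control, and cells with 1 of them 40 in RHS and 23 in control. S100a8 had a UMI in 0.499% of RHS and 0.484% of control T cells (gated by T cell genes, median depths of 2108 and 2276 UMIs). In neutrophils that share was 97.2% in RHS and 98.6% in control. The source of the S100a8 UMIs in T cells was not tested.

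Genes that the gate did not use also had the levels of neutrophils. Of 14 neutrophil genes outside the gate, the median cell of each library had UMIs in 8.00, and single cells had UMIs in 3 to 12 of them. Hdc, the enzyme that makes histamine, was seen in 135 RHS and 133 control neutrophils, at 14.5 times the level of all other skin cells in the RHS library and 12.5 times in the control library; gated basophils, which store histamine, had more of it (13721 CPM in RHS and 12771 CPM in control). Clec4d, a C-type lectin receptor, was seen in 137 RHS and 139 control cells. Stfa2l1, a stefin protease inhibitor whose near-identical copies make its counts uncertain, stood 666 times above other cells in the RHS library and 765 times in the control library. Across genes with 50 counts or more, 77 of 1164 (6.62%) were at least 10-fold above all other skin cells in both libraries. The genes furthest above other cells included Mirt2, a long non-coding RNA (487 times in the RHS and 401 times in the control library). They also included Il1f9, an interleukin 36 cytokine (406 and 362 times), and Asprv1, an aspartic protease (146 and 135 times). Ly6g, the surface antigen usually used to sort mouse neutrophils, was sparse, with 8 UMIs in RHS and 23 UMIs in control neutrophils, and Cd177 had 5 and 3 UMIs.

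**Figure D1:**
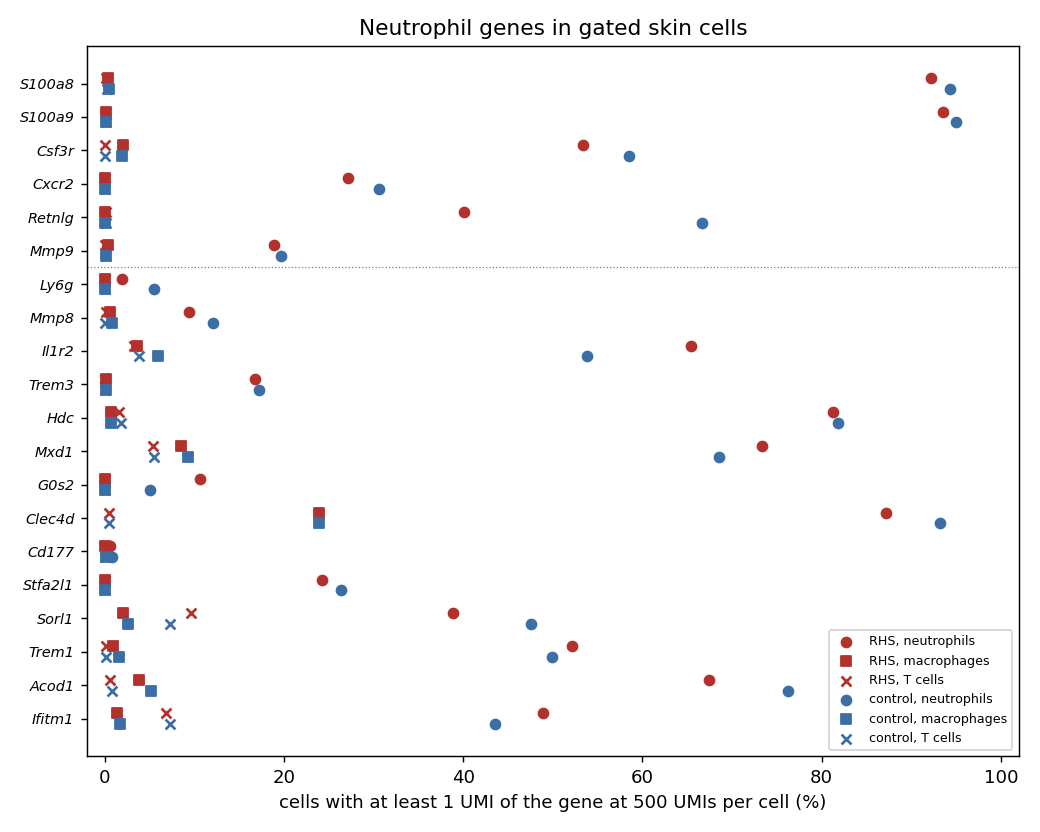
Share of cells with at least 1 UMI of each neutrophil gene when every cell is thinned to 500 UMIs, for RHS (red) and control (blue) neutrophils (circles), macrophages (squares) and T cells (crosses); the gate used the genes above the dotted line. S100a8 was seen in 92.2% of RHS and 94.3% of control neutrophils and in at most 0.445% of the other cells shown; Retnlg was seen in 40.1% of RHS and 66.6% of control neutrophils.

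The 5 genes of primary granule proteins (Mpo, Elane, Prtn3, Ctsg and Ms4a3), which are transcribed in bone marrow precursors, had 0 UMIs in both libraries. Secondary granule proteins are made later in the bone marrow. Ngp, one of them, had 166 UMIs in RHS and 6 UMIs in control neutrophils. Of the RHS UMIs, 159 lay in 1 cell of 3873 UMIs, which also held all 27 RHS UMIs of Camp, the cathelicidin gene, 58 of 275 of Lcn2 and the highest calprotectin count. Without it and the other cells over 2500 UMIs, Ngp had 7 RHS and 6 control UMIs. Ltf, lactoferrin, had 20 RHS UMIs, 18 of them in that same cell, and 0 control UMIs; without the cells over 2500 UMIs it had 2 RHS UMIs and 0 control UMIs. Lcn2, lipocalin 2, which binds bacterial iron carriers, was seen in 73 RHS and 83 control cells, with a ratio of 1.09 (0.917 to 1.29). Without the cells over 2500 UMIs the Lcn2 ratio was 0.802 (0.668 to 0.962). Hp, haptoglobin, was seen in 20 RHS and 37 control cells, with 26 and 57 UMIs and a ratio of 0.501 (0.303 to 0.810). The 10 proliferation genes summed to 46 UMIs in each library, and Pcna accounted for 43 of these in RHS and 40 in control neutrophils.

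A few gated cells held many UMIs and transcripts of other cells. Those over 2500 UMIs numbered 4 in the RHS and 8 in the control library, with 22569 and 39617 UMIs in all. They held 643 of 922 MHC class II UMIs in RHS and 382 of 512 in control neutrophils. They held 22 of 37 macrophage marker UMIs in RHS and 16 of 34 in control, and 2 of 61 endothelial and mural marker UMIs in RHS and 86 of 113 in control. T cell markers summed to 14 UMIs in RHS and 16 in control neutrophils, of which these cells held 4 and 13. Each result below is therefore given, where it matters, also over the 137 RHS and 132 control neutrophils of at most 2500 UMIs (called typical-depth neutrophils), a limit chosen after seeing the data. Over these cells, keratinocyte markers summed to 13 RHS and 15 control UMIs, macrophage markers to 15 and 18, and fibroblast markers to 11 and 15. Eosinophil markers (Siglecf, Ccr3, Epx, Prg2 and Il5ra) summed to 14 UMIs in 11 RHS cells and to 1 UMI in 1 control cell, with Epx and Il5ra at 0 in both; their part in the results was not tested.

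Neutrophils took nearly the same share of both libraries. They were 1.08% of kept RHS cells (0.909 to 1.27%) and 1.10% of kept control cells (0.926 to 1.30%), a ratio of 0.981 (0.771 to 1.25). The ratio lay between 0.840 and 1.01 under the other gates tried. The bead selection and the minimum of 500 UMIs in the deposited libraries can each set this share, since neutrophils hold little RNA.

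Of 1157 genes with enough counts for this rule, called tested from here on, 124 (10.7%) were at least 1.5-fold higher and 204 (17.6%) at least 1.5-fold lower in RHS than in control neutrophils. Of the 1157 genes, 107 (9.25%) were higher and 159 (13.7%) lower with an interval that left out 1. The median log2 ratio of all tested genes was -0.09, and with ratios centred on it 158 genes were higher and 157 lower. In typical-depth neutrophils 127 (13%) of 974 genes were higher and 163 (16.7%) lower, and 93 (8.04%) and 122 (10.5%) of the 1157 genes were called higher and lower in both sets of cells. The genes of highest level, among them Fth1 (ferritin heavy chain, ratio 1.02), Cxcl2, S100a8, Srgn and S100a9, were within 1.5-fold.

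**Figure D2:**
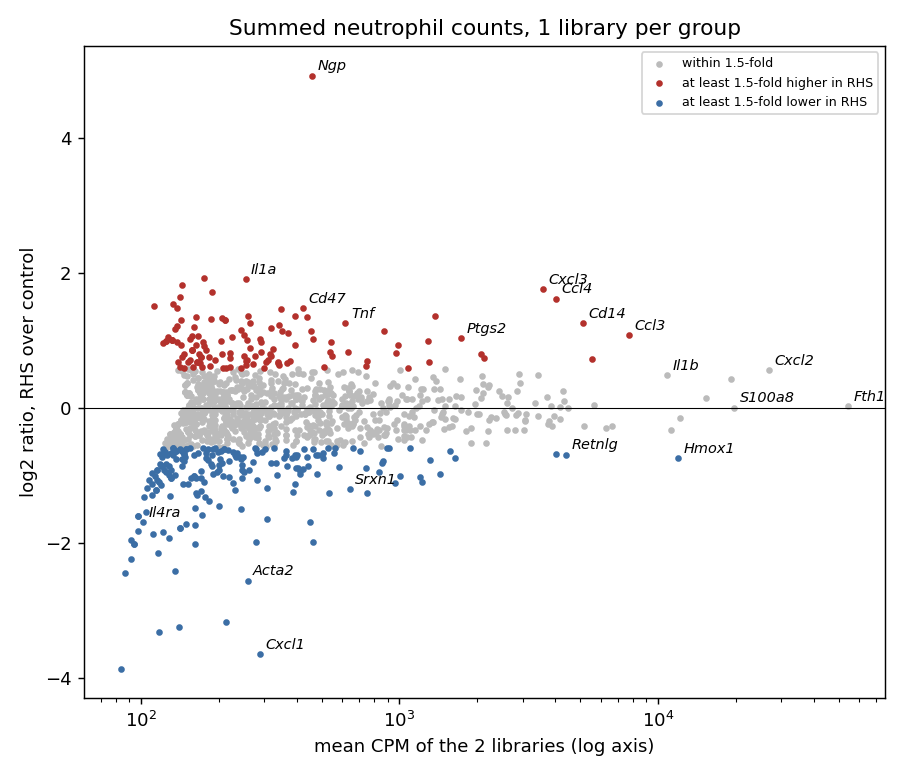
Log2 ratio of CPM (RHS over control) against the mean CPM of the 2 libraries (log axis) for genes of 30 counts or more where higher that had a UMI in both; red genes were at least 1.5-fold higher and blue genes at least 1.5-fold lower in RHS neutrophils. Cxcl3, Ccl4, Cd14 and Ccl3 were the abundant genes furthest above the line and Hmox1 the most abundant gene called lower; Ngp, Acta2 and Cxcl1 rested mainly on 1 cell each.

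Chemokine genes were among the abundant genes called higher. Of 10 listed, 7 were tested. Past the fold, 3 were higher in RHS neutrophils (Cxcl3, Ccl4, Ccl3) and 1 lower (Cxcl1), against 10.7% and 17.6% of all tested genes. The median log2 ratio of the 7 genes was 0.56, against -0.09 over all tested genes; in all other skin cells the list's median was 0.60. It was 1.37 over the 6 genes tested in typical-depth neutrophils. The list's genes together took 57888 CPM in RHS and 34345 CPM in control neutrophils.

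Cxcl3, a ligand of Cxcr2 that recruits neutrophils, had 1037 UMIs in 66 RHS cells and 337 UMIs in 42 control cells. This was 5543 CPM in RHS and 1639 CPM in control neutrophils, a ratio of 3.38 (2.99 to 3.84). Single cells ran from 0 to 67.6 Cxcl3 UMIs per 1000 UMIs in RHS and from 0 to 26.5 in control, with a median of 0 in both. Most of it came from few cells, since the 15 highest RHS cells held 71.5% of the RHS UMIs and the 14 highest control cells 77.7% of the control UMIs. Ccl4 and Ccl3, which attract monocytes and lymphocytes, were more widely seen. Ccl4 was seen in 80 RHS and 48 control cells, at 6110 and 1984 CPM, a ratio of 3.08 (2.75 to 3.46). Ccl3 was seen in 126 RHS and 109 control cells, at 10509 and 4965 CPM, a ratio of 2.12 (1.96 to 2.28). The median cell had 4.93 Ccl3 UMIs per 1000 in RHS and 2.15 in control, and the cells of both libraries overlapped over most of their range. Cxcl2, another Cxcr2 ligand and the second most abundant gene, was seen in 139 RHS and 136 control cells with a ratio of 1.48 (1.42 to 1.54), just under the fold. Ccl6, a chemokine of myeloid cells, had a ratio of 0.952 (0.846 to 1.07). Cxcl1 had 8 RHS and 110 control UMIs, of which 69 lay in 1 control cell, and in typical-depth neutrophils it had 8 UMIs in each library.

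The 3 chemokines called higher were not higher past the fold in macrophages of the same libraries. In macrophages (1950 RHS and 1071 control cells by their own gate) the ratio was 0.971 for Cxcl3, 0.751 for Ccl4 and 0.887 for Ccl3. In gated monocytes (328 RHS and 229 control cells) it was 1.57 for Cxcl3, 1.12 for Ccl4 and 1.17 for Ccl3. In gated basophils (101 cells of each library) it was 2.07 for Cxcl3 (1.58 to 2.73), 1.31 for Ccl4 and 1.13 for Ccl3. The intervals of the neutrophil ratios for these genes did not overlap those of the 3 other cell types, and these intervals cover counting error only.

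**Figure D3:**
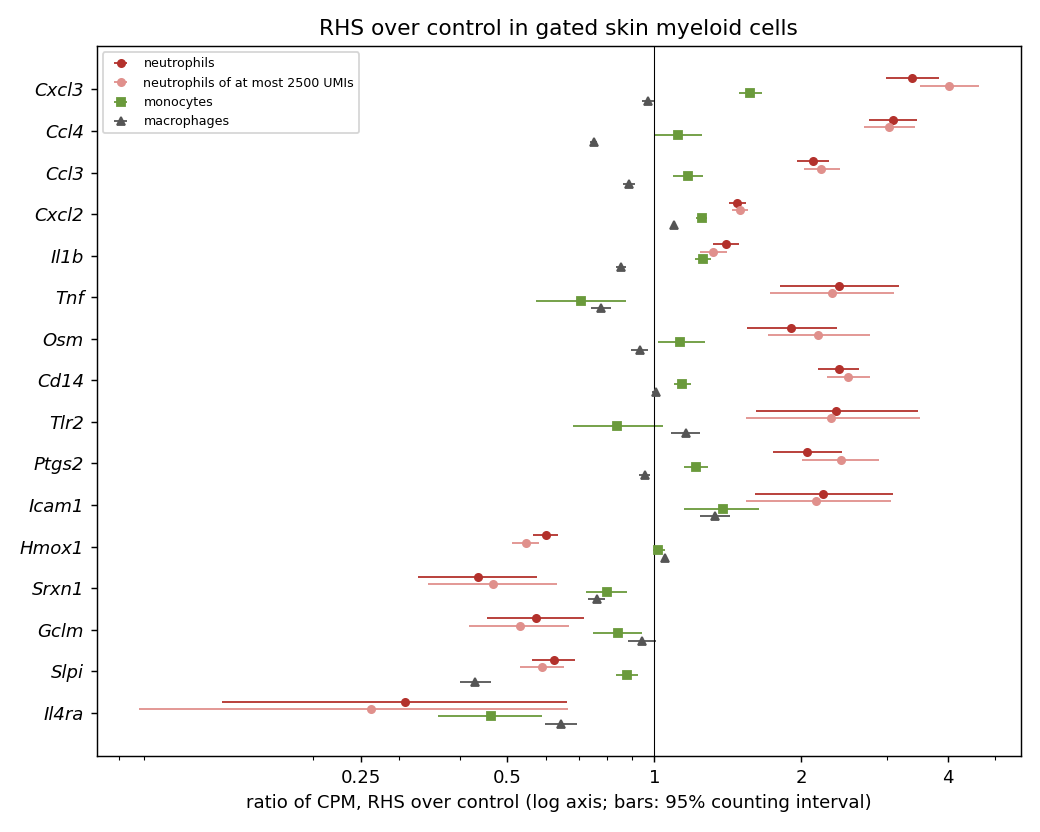
Ratio of CPM in RHS over control (log axis) with its 95% counting interval for chemokine, cytokine, receptor and stress genes in neutrophils (red), neutrophils of at most 2500 UMIs (pale red), monocytes (green) and macrophages (grey). Ccl4 lay at 3.08 in neutrophils, 1.12 in monocytes and 0.751 in macrophages, and Hmox1 at 0.599, 1.02 and 1.05.

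The upstream sequences of these chemokine genes are shown because Cxcl3 and Ccl3 were called higher and Cxcl2 was just under the fold, while only some share a sequence element. They are the 250 bases before to 50 after the start in RefSeq (GRCm38.p6, plus strand for Cxcl3 and Cxcl2 and minus strand for Ccl3), written in the sense of the gene. Capitals mark matches, on either strand, to GGGA and CC with any 4 bases between, the form bound by NF-kB factors; overlapping matches on the 2 strands are joined. The regions are chr5:90785851-90786150 (Cxcl3), chr5:90903649-90903948 (Cxcl2) and chr11:83649329-83649628 (Ccl3).
Cxcl3: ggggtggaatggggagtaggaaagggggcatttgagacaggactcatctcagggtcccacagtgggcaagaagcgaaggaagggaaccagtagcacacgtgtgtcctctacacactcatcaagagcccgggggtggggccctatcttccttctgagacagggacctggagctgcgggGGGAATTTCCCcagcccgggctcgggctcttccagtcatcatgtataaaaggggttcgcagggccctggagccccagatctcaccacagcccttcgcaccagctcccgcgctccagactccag
Cxcl2: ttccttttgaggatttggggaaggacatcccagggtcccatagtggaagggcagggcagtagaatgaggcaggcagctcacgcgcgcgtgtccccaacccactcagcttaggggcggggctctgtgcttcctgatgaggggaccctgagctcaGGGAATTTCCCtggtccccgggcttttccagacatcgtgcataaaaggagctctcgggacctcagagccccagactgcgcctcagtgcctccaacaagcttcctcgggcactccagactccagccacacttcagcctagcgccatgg
Ccl3: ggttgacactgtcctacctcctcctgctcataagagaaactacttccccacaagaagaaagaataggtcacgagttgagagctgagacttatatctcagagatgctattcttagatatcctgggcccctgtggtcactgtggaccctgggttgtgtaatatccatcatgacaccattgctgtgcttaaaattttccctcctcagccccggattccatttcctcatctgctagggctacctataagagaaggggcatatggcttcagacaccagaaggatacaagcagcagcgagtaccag
Cxcl3 and Cxcl2 held the same run, starting 73 and 97 bases before the start, and Ccl3 held no match in this window. Cxcl1, called lower, held 3 matches, among them the same run with its last match starting 70 bases before the start. Of the 7 tested chemokine genes, 6 had a promoter in the set used, and Ccl4, called higher, had none. Matches stood in 3 of 6 chemokine promoters of tested genes, and in 20.7% of 32851 RefSeq promoters and 28.1% of 1203 promoters of genes tested in neutrophils. The ratios were 3.38 for Cxcl3 and 1.48 for Cxcl2, which hold the element, and 2.12 for Ccl3, which has none here. A link between the element and the ratios was not tested. A match is a description of letters and not a measured site.

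Among cytokines, 4 of 9 tested genes were higher past the fold in RHS neutrophils and 1 was lower, against 10.7% and 17.6% of all tested genes, with a median log2 ratio of 0.49 (other skin cells 0.24). Il1b, the main interleukin 1 of neutrophils, was seen in 138 RHS and 137 control cells, at 12668 and 9041 CPM, a ratio of 1.40 (1.32 to 1.49), under the fold. Il1a, its membrane-bound relative, had 75 UMIs in 19 RHS cells and 22 UMIs in 13 control cells, a ratio of 3.75 (2.30 to 6.33). The highest RHS cell held 20 of them and the next 19, against at most 3 in a control cell. Tnf, tumour necrosis factor, was seen in 49 RHS and 33 control cells, at 871 and 365 CPM, a ratio of 2.39 (1.81 to 3.18). The 15 highest RHS cells held 71.2% of the RHS Tnf UMIs and the 14 highest control cells 74.7% of the control UMIs. The highest RHS cell held 26 Tnf UMIs and the next 21, and the highest control cell 22. Each of these cells had 1 S100a8 and 2 S100a9 UMIs, the least the gate allowed. Without the highest cell of each library the Tnf ratio was 2.84. Osm, oncostatin M of the interleukin 6 family, was seen in 77 RHS and 56 control cells with a ratio of 1.91 (1.55 to 2.37), and Csf1, the macrophage growth factor, in 39 and 24 cells with a ratio of 1.75 (1.20 to 2.58). Il1rn, the interleukin 1 receptor antagonist, had a ratio of 1.19 (1.08 to 1.31). Il6 was called lower at 0.249, but 40 of its 53 control UMIs lay in 1 cell. In macrophages the ratios were 0.766 for Il1a, 0.778 for Tnf, 0.933 for Osm and 0.844 for Csf1, and in monocytes 0.575 for Il1a, 0.708 for Tnf, 1.13 for Osm and 1.65 for Csf1.

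**Figure D4:**
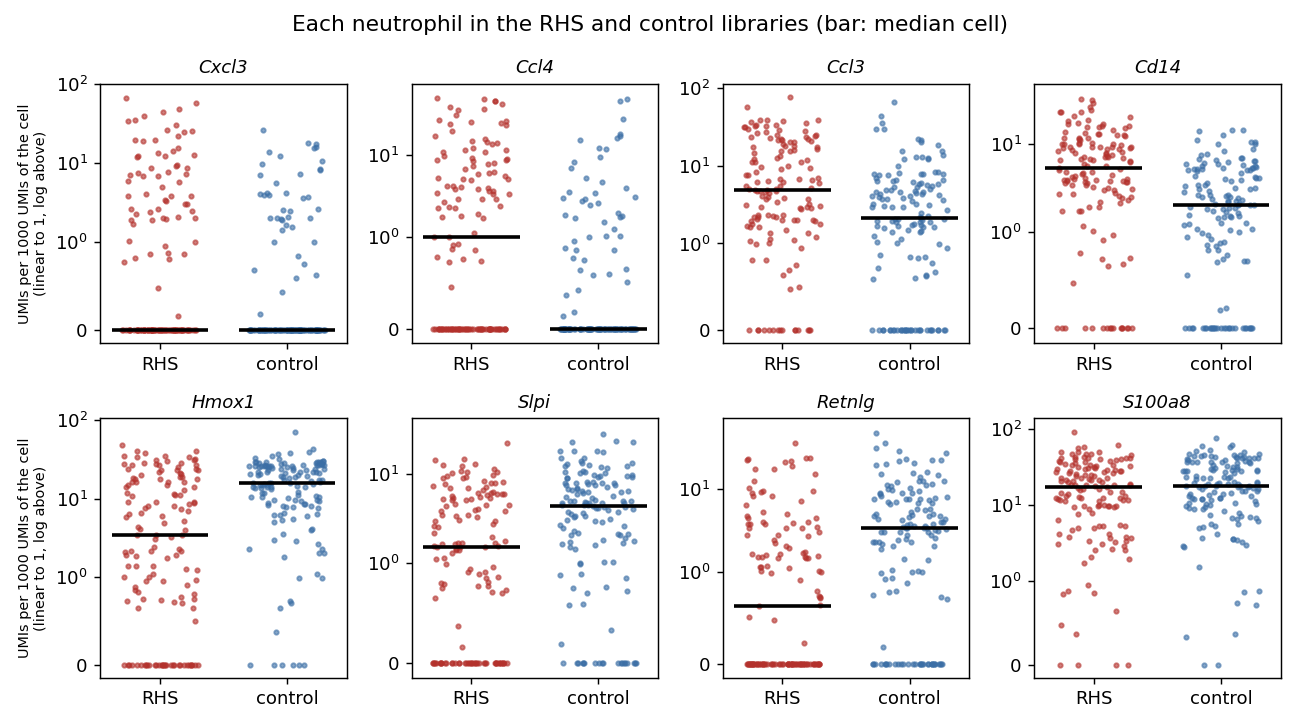
Each dot is 1 neutrophil of the RHS (left, red) or control (right, blue) library, with its UMIs of the gene per 1000 UMIs of the cell (linear to 1, log above) and the median cell as a bar. Median cells stood at 4.93 and 2.15 for Ccl3, 5.38 and 2.00 for Cd14 and 3.44 and 15.9 for Hmox1 in RHS and control, and dots of both libraries overlap for every gene shown.

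Pattern recognition receptors were mixed, with 2 of 10 tested genes higher (Cd14 and Tlr2) and 1 lower (Pglyrp1) past the fold. Over all tested genes these shares were 10.7% and 17.6%. The list's median log2 ratio was 0.13 (other skin cells 0.38). Cd14, the co-receptor for bacterial lipopolysaccharide, was seen in 125 RHS and 112 control cells, at 7211 and 3020 CPM, a ratio of 2.39 (2.17 to 2.63). Its ratio was 1.01 in macrophages, 1.14 in monocytes and 1.53 in all other skin cells. Tlr2, the receptor for bacterial lipoproteins, had 90 RHS and 42 control UMIs, a ratio of 2.36 (1.62 to 3.48), against 1.67 in all other skin cells. Trem1, which amplifies such signals, had a ratio of 1.10 (0.931 to 1.29), and Clec4d 0.813 (0.750 to 0.881). Il1r2, the interleukin 1 decoy receptor, was seen in 117 RHS and 109 control cells with a ratio of 1.68 (1.46 to 1.94). Ptgs2, the inducible prostaglandin synthase, was seen in 80 RHS and 69 control cells with a ratio of 2.06 (1.75 to 2.43). Thbs1, the matrix protein thrombospondin 1, had a ratio of 1.65 (1.52 to 1.80), and Cd47, its receptor and a signal against engulfment, 2.80 (1.97 to 4.02). Cd47 was seen in 47 RHS and 35 control cells.

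Of 8 chemoattractant receptor genes, 1 was higher past the fold (Ccrl2, 1.54, 1.21 to 1.96) and none was lower, against 10.7% and 17.6% of all tested genes. In typical-depth neutrophils none was called, against 13% higher and 16.7% lower of all genes tested there. Fpr1, the receptor for bacterial formyl peptides, had a ratio of 0.705 (0.539 to 0.919). Of 10 immediate early genes tested, 4 were higher (Egr1, Ier3, Junb and Btg2) and 1 lower (Fosb) in RHS neutrophils, against 10.7% and 17.6% of all tested genes, with a median log2 ratio of 0.25 (other skin cells -0.09). Egr1 was seen in 44 RHS and 17 control cells, with a ratio of 2.28 (1.55 to 3.41). Fosb had 33 RHS and 65 control UMIs, and its ratio of 0.558 stood near those of macrophages (0.590) and monocytes (0.425); in typical-depth neutrophils it was 0.782 and inside the fold. Of 11 NF-kB feedback and target genes, 1 was higher (Icam1, an adhesion molecule, 2.22, 1.61 to 3.09) and 1 lower (Bcl3), against 10.7% and 17.6% of all tested genes. Nfkbia, the inhibitor of NF-kB, was at 1.41 (1.26 to 1.59). In typical-depth neutrophils 3 of 9 of these NF-kB genes were higher (Tnfaip3 at 1.81, Nfkb1 at 1.72 and Icam1 at 2.15) and none was lower. Over all genes tested there, 13% were higher and 16.7% lower. Of 8 survival genes 2 were higher and none was lower past the fold, against 10.7% and 17.6% of all tested genes. The higher ones were Bcl2a1a, whose near-identical copies make its counts uncertain, and Cflar, an inhibitor of death receptor signalling (1.60, 1.09 to 2.36). In typical-depth neutrophils 4 of 8 were higher and none was lower, against 13% and 16.7% of all genes tested there. Added were Bcl2a1b (1.64) and Bcl2a1d (3.23), which are near-identical copies of Bcl2a1a and equally uncertain.

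Of 12 tested genes for iron, haem and oxidative stress, 4 (Hmox1, Srxn1, Gclm and Prdx1) were lower past the fold in RHS neutrophils and none was higher, against 17.6% and 10.7% of all tested genes. The call of Prdx1 rested on 1 control cell. In typical-depth neutrophils 5 of 12 were lower, Prdx1 not among them, against 16.7% of all genes tested there. The median log2 ratio was -0.40, against 0.17 in other skin cells. Hmox1, haem oxygenase 1, which breaks down haem and is induced by oxidative stress, had 1678 UMIs in 109 RHS cells and 3078 UMIs in 134 control cells. This was 8969 CPM in RHS and 14969 CPM in control neutrophils, a ratio of 0.599 (0.564 to 0.636). The median RHS neutrophil had 3.44 Hmox1 UMIs per 1000 and the median control neutrophil 15.9, and the upper quartiles were 16.5 and 26.0. The lower quartiles were 0.700 in RHS and 8.03 in control, and 32 RHS cells had no Hmox1 UMI, against 6 control cells. After thinning to 500 UMIs, Hmox1 was seen in 64.9% of RHS and 90.9% of control neutrophils, and in 81.4% of RHS and 77.3% of control macrophages.

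Of the other genes of the list, Srxn1 and Gclm were lower past the fold in both sets of cells. Srxn1, sulfiredoxin, which repairs oxidised peroxiredoxins, had 73 RHS and 184 control UMIs, a ratio of 0.436 (0.328 to 0.575). Gclm, a subunit of the first enzyme of glutathione synthesis, had 116 RHS and 223 control UMIs, a ratio of 0.572 (0.453 to 0.719). Prdx1, a peroxiredoxin, had a ratio of 0.468, but 175 of its 343 control UMIs lay in 1 cell, and it was 0.689 in typical-depth neutrophils and so inside the fold. Txn1, thioredoxin, was at 0.800 (0.705 to 0.907) and Ftl1, ferritin light chain, at 0.695 (0.598 to 0.807), both within the fold. Txnrd1, a thioredoxin reductase, was at 0.754, Prdx5, another peroxiredoxin, at 0.765, Slc7a11, a cystine transporter, at 0.903 and Sod2, the mitochondrial superoxide dismutase, at 1.02, and none of these 4 was called. In typical-depth neutrophils Ftl1 (0.607) and Prdx5 (0.646) were lower past the fold. Slc40a1, the iron exporter ferroportin, which is not on this list, was seen in 38 RHS and 66 control cells. Its ratio was 0.510 (0.360 to 0.715). Bach1, a haem-regulated repressor of Hmox1 from the list of transcription factors, was at 0.615 (0.436 to 0.862). In macrophages the ratios were 1.05 for Hmox1, 0.762 for Srxn1 and 0.945 for Gclm.

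The Srxn1 promoter is shown because Srxn1 had the lowest ratio of this group. It is chr2:152105274-152105573, plus strand, RefSeq on GRCm38.p6, and capitals mark TGACNNNGC or TGAGNNNGC, the core of the antioxidant response element, on either strand.
Srxn1: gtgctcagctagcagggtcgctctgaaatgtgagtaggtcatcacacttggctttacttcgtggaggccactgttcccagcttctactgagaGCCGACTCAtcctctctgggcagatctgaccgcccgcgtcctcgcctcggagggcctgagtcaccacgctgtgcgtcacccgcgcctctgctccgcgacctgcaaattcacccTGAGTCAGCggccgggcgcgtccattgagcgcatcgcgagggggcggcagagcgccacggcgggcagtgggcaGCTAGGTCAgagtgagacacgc
Srxn1 held 3 matches, the first starting 158 bases before the start. Matches stood in 6 of 14 promoters of the list's tested genes. They were those of Srxn1, Gclm and Prdx1, called lower, and of Slc11a1, Slc7a11 and Txnrd1 (1 of its promoters), not called. Of the 12 tested genes, 11 had a promoter in the set used, and Hmox1 had none. Matches also stood in 27.8% of all RefSeq promoters and 33.5% of those of genes tested in neutrophils.

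Genes typical of neutrophils went both ways. Of the 12 tested neutrophil markers outside the gate, 2 were higher past the fold in RHS neutrophils and none was lower. Over all tested genes the shares were 10.7% and 17.6%, and the markers had a median log2 ratio of 0.13. The 2 higher markers were Il1r2, given above, and G0s2, an inhibitor of fat breakdown. G0s2 had 55 RHS and 24 control UMIs and a ratio of 2.52 (1.53 to 4.25). Retnlg had 631 RHS and 1116 control UMIs, at 3373 and 5428 CPM, a ratio of 0.621 (0.563 to 0.686) and 0.502 in typical-depth neutrophils. As a gate gene it is given as a description. Slpi, a secreted inhibitor of neutrophil elastase, was seen in 98 RHS and 121 control cells, with a ratio of 0.622 (0.561 to 0.689), and its ratio was 0.430 in macrophages. Il1f9 was seen in 81 RHS and 114 control cells, with a ratio of 0.640 (0.542 to 0.756). Of 13 tested genes listed as typical of circulating neutrophils, 3 were lower past the fold and 2 higher, against 17.6% and 10.7% of all tested genes. Lower were Prr13 (0.462, 0.368 to 0.577), Msrb1, a methionine sulfoxide reductase (0.588, 0.489 to 0.706), and Asprv1. Higher were Ifitm6 and Wfdc21, which in typical-depth neutrophils were at 1.35 and 1.13 and inside the fold. Of 6 secondary granule genes, 3 were higher (Ngp, Chil3 and Wfdc21) and 1 was lower (Hp), against 10.7% and 17.6% of all tested genes. None of the 3 higher ones was called in typical-depth neutrophils. Ncf4, a subunit of the NADPH oxidase, was seen in 16 RHS and 38 control cells with a ratio of 0.421 (0.230 to 0.739), and Hif1a, the hypoxia-inducible factor, had a ratio of 0.525 (0.371 to 0.734).

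Single cells also differed within each library. With cells thinned to 500 UMIs, Ccl3 and Ccl4 were seen together in 59 RHS cells (53.3 if unlinked) and 23 control cells (19.5 if unlinked). Hmox1 and Ccl3 were seen together in 66 RHS cells (73.4 if unlinked) and 82 control cells (82.5 if unlinked). Retnlg, a gate gene, and Ccl4 were seen together in 19 RHS cells (25.9 if unlinked) and 13 control cells (19.3 if unlinked). Retnlg and Lcn2 were seen together in 28 RHS cells (20.3 if unlinked) and 35 control cells (33.4 if unlinked). All of these are counts of cells of 1 library each, and the departures were not tested. Retnlg UMIs were concentrated in few RHS cells, with 70.4% in the 15 highest cells, against 43.5% in the 14 highest control cells.

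MHC class II genes, which present antigen to T cells, were higher past the fold in 4 of 4 tested genes, against 10.7% of all tested genes. H2-Aa had a ratio of 2.00 (1.66 to 2.42), H2-Ab1 2.21 (1.75 to 2.80), H2-Eb1 1.98 (1.48 to 2.66) and Cd74, the invariant chain, 1.76 (1.43 to 2.19). Most of these UMIs lay in the few cells over 2500 UMIs, and the typical-depth neutrophils held 279 RHS and 130 control UMIs. There H2-Aa had a ratio of 2.91 and Cd74 1.94. Transcripts of H2-Aa were also found in T cells. H2-Aa had a UMI in 24.8% of RHS and 20.0% of control neutrophils, and in 25.6% of RHS and 20.0% of control T cells. At 500 UMIs per cell it was seen in 15.5% of RHS and 10.2% of control neutrophils, and in 8.15% of RHS and 5.64% of control T cells. The ratio of H2-Aa was 1.66 (1.55 to 1.78) in T cells and 3.47 (2.52 to 4.86) in basophils, against 0.898 in macrophages. The part of free RNA in these shares and in the ratio was not tested. The stefin Cstdc4, whose counts are uncertain because of near-identical copies, had a ratio of 2.58 (2.14 to 3.13) and was seen in 63 RHS and 51 control cells.

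The 12 called genes with the highest ratio were Ngp, Ifitm6, Il1a, Cxcl3, Ccl4 and Cd47, given above, with Cybb, Plet1, Prnp, Rffl, Cd80 and Il10ra. Cybb, the membrane subunit of the NADPH oxidase, had 42 RHS UMIs in 11 cells and 13 control UMIs in 5 cells, and 20 and 3 in typical-depth neutrophils. Prnp, the prion protein, was seen in 21 RHS and 12 control cells (3.14, 1.67 to 6.25). Rffl, a ubiquitin ligase, was seen in 28 and 12 cells (2.90, 1.53 to 5.82). Cd80, a costimulatory ligand, was seen in 23 and 12 cells (2.84, 1.42 to 6.07), and Il10ra, the interleukin 10 receptor, in 30 and 15 cells (38 and 15 UMIs, a ratio of 2.78). Plet1 was seen in 16 RHS and 10 control cells (3.30, 1.90 to 5.97).

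Of the 12 called genes with the lowest ratio, 8 had more than 50% of their control UMIs in 1 cell. Tagln (31 of 32 UMIs), Tpm2 (50 of 52) and Acta2 (71 of 91) encode smooth muscle proteins, and none of the 3 was called in typical-depth neutrophils. Cxcl1 (69 of 110), Epsti1 (36 of 44) and Gpnmb (29 of 30) were alike in both respects. Il6 had 40 of 53 in 1 cell, and Fabp4, a fatty acid carrier, 41 of 79. Lgals1, galectin 1, had a ratio of 0.187, and 0.466 in typical-depth neutrophils. The other 3 had small counts spread over many cells. Gpsm3, a G protein regulator, was seen in 8 RHS and 33 control cells (0.225, 0.0910 to 0.489), and Larp4, an RNA-binding protein, in 7 and 28 cells (0.248, 0.0922 to 0.574). Cd93 was seen in 6 and 17 cells (0.213, 0.0726 to 0.518). Il4ra, the receptor chain for interleukins 4 and 13, was seen in 7 RHS and 24 control cells, with a ratio of 0.309 (0.130 to 0.663); its ratio was 0.644 in macrophages and 0.462 in monocytes, and in typical-depth neutrophils it had too few counts for a call.

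Receptors for nerve signals were nearly absent from these counts. Of 15 adrenergic and neuropeptide receptor genes, 9 had no UMI in either library. Calcrl, a chain of the receptor for calcitonin gene-related peptide, had 0 RHS and 5 control UMIs. A count of 0 in these libraries allows up to 16.0 CPM in RHS and 14.6 CPM in control neutrophils. Differences in these receptors were not detectable at this depth. Of 5 glucocorticoid-responsive genes tested, none was higher and 1 was lower past the fold, against 10.7% and 17.6% of all tested genes. The lower one was Nr3c1, the glucocorticoid receptor (21 RHS and 36 control UMIs, 0.641, 0.356 to 1.13). The other 4 had ratios above 1, and the list's median log2 ratio was 0.48 (all tested genes -0.09, other skin cells -0.09). In typical-depth neutrophils 1 of 5 was higher and 1 lower past the fold, against 13% and 16.7% of all genes tested there. Of 5 interferon-induced genes tested, none was higher and 1 was lower past the fold (Ifi204, 0.433, 0.209 to 0.845), beside the same 10.7% and 17.6%.

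**Figure D5:**
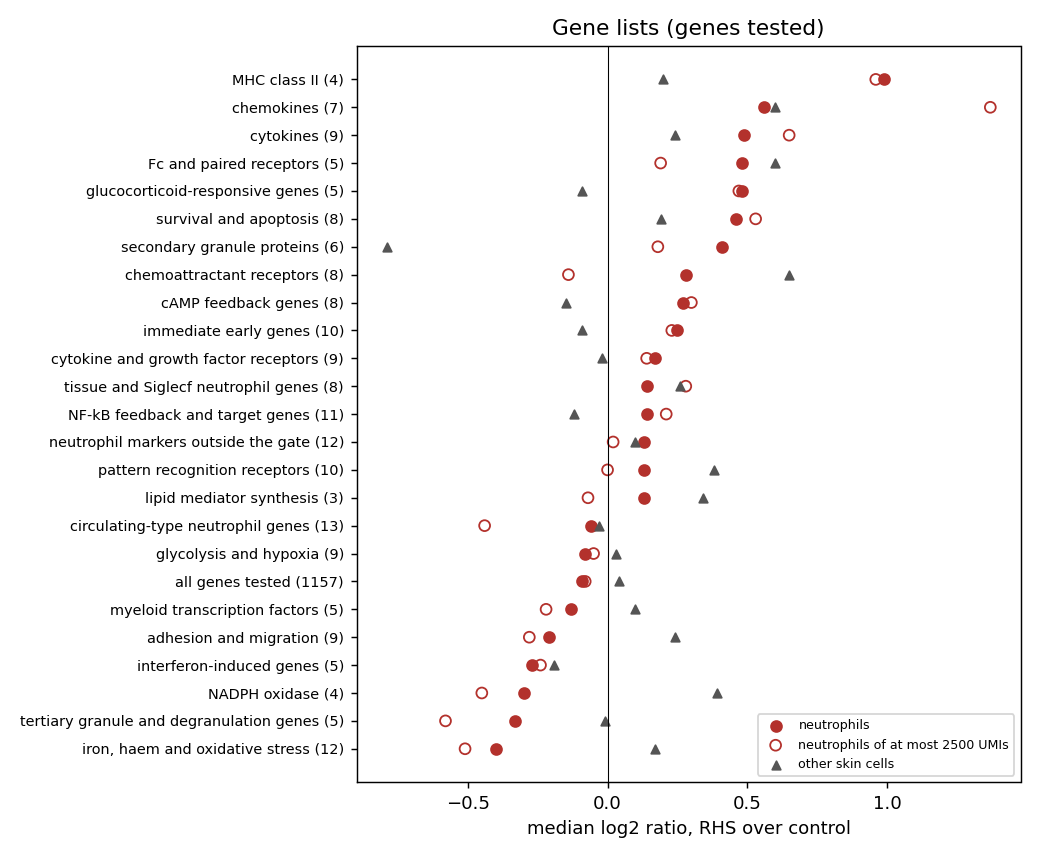
Median log2 ratio (RHS over control) of the tested genes of each list in neutrophils (filled circles), in neutrophils of at most 2500 UMIs (open circles) and in all other skin cells (triangles), with the number of genes tested in brackets. MHC class II lay highest (0.99) and iron, haem and oxidative stress lowest (-0.40) in neutrophils, against -0.09 for all genes tested; the chemokine median of 0.56 was 0.60 in other skin cells.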

How the data were processed

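The 2 skin libraries held counts of UMIs per gene and cell, deposited by the authors as unnormalized matrices, and the ganglia library held such counts per nucleus. Per the submitters' processing notes, Cell Ranger, GRCm39, R 3.6.0 and Seurat 5.1.0 were used, with no role given, and the ganglia file header names Cell Ranger 7.1.0. For the skin reads the counting program is not given in the sources. Cells were taken by the gate described above. Counts of gated cells were summed per library and scaled to 1000000 UMIs. Intervals of levels are exact Poisson, those of shares exact binomial (Clopper-Pearson) and those of ratios exact conditional binomial, at 95%, and they cover counting error only. A count of 0 was given a limit of 3 counts. Genes named are the 12 called genes with the highest and the 12 with the lowest ratio whose interval leaves out 1, the 15 highest in level or over other cells, and members of the lists by level and ratio; others were named after their values were seen. The members and the gene lists were chosen with earlier results of these data known. For shares, cells were thinned to 500 UMIs (shares as exact expectations, pairs of genes from 1 seeded draw), and no kept cell was shallower. Doublets were marked with Scrublet in scanpy 1.11.5 at an expected 6%. Promoters were matched by symbol in RefSeq on GRCm38.p6, another build than that of the files, and no coordinates were carried between them. Python 3.11.15, numpy 2.4.6, pandas 2.3.3, scipy 1.17.1 and matplotlib 3.10.9 were used, and the ratio code was tested on simulated data. Alternatives changed the gate, the count minimum, the scaling and the weight of single cells.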

Additional observations from a re-analysis of the deposited data

How the results depend on the processing

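No paired analysis was possible because the RHS and control groups share only 1 replicate number, and with 1 library each no replicate could be left out. The ratio of shares stayed between 0.840 and 1.01 over 9 alternatives. The count of genes higher in RHS neutrophils, 124, was 56 with cells thinned to 500 UMIs, 29 with a minimum of 100 counts and 494 with a minimum of 10 counts, and the count lower, 204, was 77, 49 and 627; fewer or more genes are tested in each. Under the other alternatives they ran from 105 to 180 and from 151 to 261. For 95 genes the alternatives gave 1321 log2 ratios in all, of which 1134 moved little, 173 moved further and 14 changed sign. With no excluded genes in the gate Ngp was at -0.01, Cxcl1 at 0.26, Fabp4 at 1.43, Prdx1 at 0.08 and Ifi204 at 0.04. Plet1 was at -0.11 with a calprotectin minimum of 1 UMI. Cxcl1 was at 1.55 with a minimum of 10 UMIs and at 0.92 with at least 2 second genes. Tpm2 was at 0.12 with at most 10% mitochondrial UMIs. In 3 alternatives chosen after seeing the data, single cells or deep cells were left out. Without the cell highest for each gene Tpm2 and Gpnmb were at 0.14. Without cells over 2500 UMIs, a limit set after seeing that they held most MHC class II UMIs, Tagln was at 1.01, Cxcl1 at 0.01 and Tpm2 at 1.33. The cause was not tested. With 141 RHS and 140 control cells of low depth, genes under 30 counts could not be compared.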

Other observations

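In the ganglia library, which was made from nuclei pooled from 30 RHS and MC903 mice, 29 of 4686 kept barcodes met the gate used for skin neutrophils. They held 42985 UMIs, with a median of 739 per nucleus. They were not compared with the skin cells, since tissue and capture method differ.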
